A study of Homo sapiens with 2 samples.

Results

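Expression was examined for 8 genes of the FOXO pathway, out of 18377 genes measured, in K562 cells treated with imatinib and grown with or without erythropoietin (EPO). The 8 genes are 3 FOXO transcription factors (FOXO1, FOXO3 and FOXO4), the 3 sestrins (SESN1, SESN2 and SESN3) and a pair of genes known as FOXO targets, IRS2 and TXNIP. They were taken as the array probes whose only platform gene symbol is that of the gene, and each of the 8 has 1 such probe. The rule used no measured value. K562 is an established human leukaemia line driven by the fusion kinase BCR-ABL1, which imatinib inhibits. The first group is K562 grown with EPO and the second is K562 whose label names no EPO, read as the EPO-free culture that the growth protocol describes. Both groups received imatinib at 2 µM for 6 h, so the inhibitor is shared by them, and cells without imatinib were not analysed here. Each group is 1 sample on 1 Affymetrix Gene ST array, so no value has a replicate error, no difference was tested, and precision is limited by the number of arrays.

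FOXO factors are forkhead transcription factors that restrain growth and switch on genes for cell cycle arrest, cell death, autophagy and defence against oxidants. When growth factor receptors activate PI3-kinase, the kinase AKT phosphorylates FOXO proteins, which then bind 14-3-3 proteins and leave the nucleus. EPO activates this route in red cell precursors, and BCR-ABL1 activates it in leukaemia cells. In mouse red cell precursors FOXO3 is known for driving antioxidant genes. Sestrins are stress proteins that hold back the growth kinase complex mTORC1 when bound to its regulator GATOR2. The array measures transcripts, not the phosphorylation or the location of FOXO proteins.

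Promoter sequences are shown for the gene with the largest difference of the 8, SESN3, and for TXNIP, the promoter of the 8 genes that held the most motif matches. They are the 250 bases before the start of transcription, from RefSeq (GRCh38.p14). All 8 genes matched that table, with 14 start windows of 300 bases in all (250 before and 50 after the start). Capitals mark motif matches, and a sequence without capitals held none of the motifs searched.
SESN3, chr11:95232476-95232725, minus strand: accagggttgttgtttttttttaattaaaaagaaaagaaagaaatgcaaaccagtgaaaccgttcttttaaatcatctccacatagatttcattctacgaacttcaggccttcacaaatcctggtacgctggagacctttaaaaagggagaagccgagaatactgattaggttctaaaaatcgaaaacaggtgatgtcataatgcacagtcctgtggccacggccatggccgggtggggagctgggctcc
TXNIP, chr1:145996580-145996829, minus strand: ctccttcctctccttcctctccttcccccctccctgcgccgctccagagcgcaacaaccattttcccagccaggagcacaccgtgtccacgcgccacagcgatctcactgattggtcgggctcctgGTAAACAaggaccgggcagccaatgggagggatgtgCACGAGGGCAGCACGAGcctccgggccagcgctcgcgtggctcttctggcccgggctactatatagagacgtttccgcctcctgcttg

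The FOXO binding motif was searched as GTAAACA on both strands of all 35116 windows of the table, and 3.42% of the windows held it. Of the 14 windows of the 8 genes, 2 held it. In TXNIP it begins 124 bases before the start, and in FOXO4 it lies within the transcribed bases just after the start. The variant ATAAACA stood in 4.24% of all windows and in 1 of the 14, a start of FOXO3. A pair of CACGNG boxes with 5 bases between them is a form of carbohydrate response element. It stood in 20 windows of the table (0.0570%), among them TXNIP, where it begins 88 bases before the start. Looser forms of the element were not searched, so that share holds for this exact pattern only. The ATF4-type motif TGATGNAA stood in 3.62% of all windows and in 0 of the 14. None of these motifs overlapped another in the 8 genes. The FOXO matches outside TXNIP are given with 10 bases on each side.
FOXO4, chrX:71095864-71095890, plus strand: ccggcgagtgGTAAACAgagacgtcag
FOXO3, chr6:108560673-108560699, plus strand: cgagcgaaacATAAACAaacgcacgca
Matches are descriptions of sequence, and no binding was measured.

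The deposited values were read as log2 deviations of each probe from a baseline at 0 that no source used here describes. Read so, they say nothing of how abundant a transcript is, and levels cannot be compared between genes. For the same reason the identity of the cells could not be checked from levels of globin or other marker genes. No source used here states the log base, which is read as 2. Deviations were wider without EPO, with a standard deviation over genes of 0.128 with EPO and 0.429 without EPO. A gene was called higher or lower when the arrays differed by at least 2-fold, which is 1 on the log2 scale. By that rule 6.19% of all 18377 genes were higher with EPO and 0.898% were lower, and the median difference over all genes stood at -0.047. The shift depended on the class of gene. The median was 0.47 for 498 genes of cellular machinery (such as the proteasome, respiratory chain, mitochondrial ribosome and spliceosome) and -0.32 for 460 genes of families silent in most cells (such as olfactory receptors). Among the machinery genes 13.9% were higher by the rule. Most of them had a difference above 0, as their median shows, against 45.4% of all genes.

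The sestrins had higher values with EPO, and 2 of the 3 FOXO factors had lower ones on the probe of their own. For FOXO3, a further probe described below went the other way. Of the 8 genes, 1 was at least 2-fold higher with EPO, SESN3, and 0 were at least 2-fold lower, beside 6.19% and 0.898% of all genes. The differences were above 0 in 5 genes and below 0 in 3, and they ran from -0.89 for FOXO3 to 1.48 for SESN3. Their median was 0.48, beside 0.47 for the machinery genes and -0.047 for all genes. With the machinery median subtracted, the median of the 8 genes was 0.0019. The arrays lay on opposite sides of the baseline in 8 of the 8 genes, as they did in 83.1% of all genes. The array without EPO lay farther from the baseline in 7 of the 8, IRS2 being the exception, and in 82.6% of all genes.

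**Figure D1:**
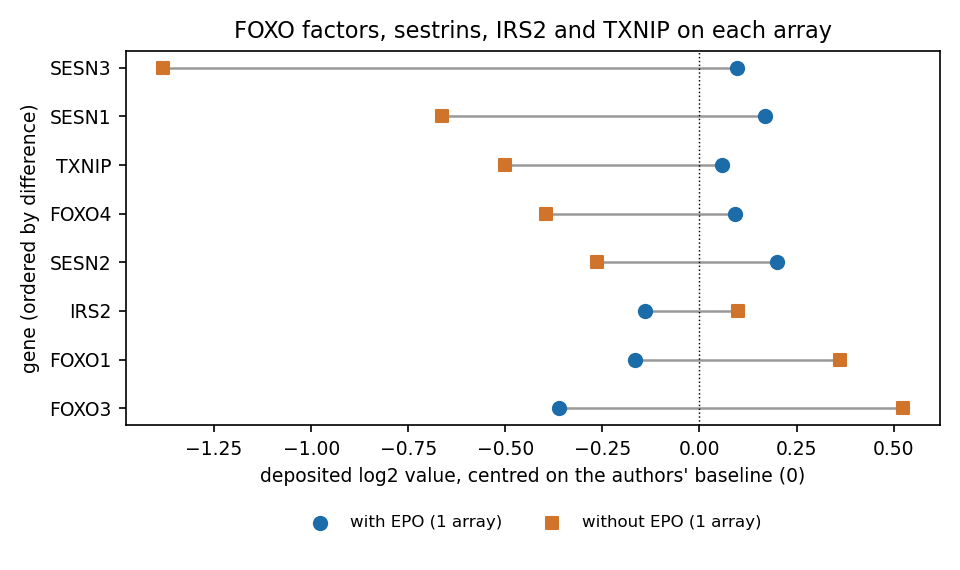
Deposited value of each gene, read as log2, with EPO (circles) and without EPO (squares), 1 array each. The baseline is read as 0, and a grey line joins the 2 arrays of a gene. Genes run from the highest difference at the top (SESN3) to the lowest at the bottom (FOXO3), and the circles stay between -0.36 and 0.20 while the squares run from -1.38 to 0.52.

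FOXO3, the FOXO factor known in mice for its part in red cell maturation, had a value of -0.36 with EPO and 0.52 without EPO. The difference of -0.89 is a value 1.85-fold lower with EPO. It lay below the differences of 98.7% of all genes, and it lay at percentile 4.78 of the silent families and 0.80 of the machinery genes. On the array with EPO the FOXO3 value itself was at percentile 0.58 of all genes, and on the array without EPO it was at percentile 96.8.

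A further probe is shared by FOXO3 and FOXO3B, a near-identical copy, and was left out because it names 2 genes. It stood at 0.022 with EPO and -0.64 without EPO, a difference of 0.66, which is opposite in direction to that of the FOXO3 probe. The gap between the probes was 1.55. The median gap between probes of the same gene was 0.18 over the 685 genes with several probes, and its 95th percentile was 1.16. With the shared probe averaged in, the FOXO3 difference was -0.11. Both the size and the direction of the FOXO3 difference thus depend on which probe is read. None of the other 7 genes had a shared probe.

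FOXO1, the family member best known for regulating glucose metabolism, had a value of -0.17 with EPO and 0.36 without EPO. The difference was -0.53, or 1.44-fold lower with EPO, and 93.6% of all genes had a higher difference. FOXO4, encoded on the X chromosome, went the other way. Its value was 0.093 with EPO and -0.40 without EPO, a difference of 0.49 (1.40-fold). That is at percentile 78.2 of all genes and 51.4 of machinery genes. The differences of the 3 factors thus spanned 1.37 on the log2 scale, from FOXO3 to FOXO4.

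The 3 sestrins lay above the baseline with EPO, between 0.095 and 0.20, and below it without EPO, between -1.38 and -0.26. SESN3, the sestrin best known as a FOXO target, had a value of 0.095 with EPO and -1.38 without EPO. The difference of 1.48 is 2.79-fold higher with EPO, above 99.3% of all genes and at percentile 98.6 of the machinery genes. Its deviation lay almost wholly on the array without EPO, where its value was at percentile 0.39 of all genes, against percentile 79.1 with EPO.

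SESN1, known as a p53 target, had a value of 0.17 with EPO and -0.66 without EPO. The difference was 0.83 (1.78-fold), at percentile 89.8 of all genes and 75.7 of the machinery genes. SESN2, known to be induced by ATF4 and by NRF2 (gene NFE2L2) under stress, had the smallest difference of the sestrins. It stood at 0.20 with EPO and -0.26 without EPO, a difference of 0.46 (1.38-fold), at percentile 77.2 of all genes and 49.8 of machinery genes. Its known regulators stood far apart. ATF4 was at -0.70 with EPO and 1.36 without EPO, a difference of -2.06, and NFE2L2 at -0.036 with EPO and -1.04 without EPO, a difference of 1.00.

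The targets IRS2 and TXNIP differed in direction, and neither passed 2-fold. IRS2, the adaptor that links insulin and cytokine receptors to PI3-kinase, had the smallest difference of the 8 genes. Its value was -0.14 with EPO and 0.10 without EPO, a difference of -0.24 (1.18-fold lower with EPO), at percentile 27.5 of all genes. TXNIP, which binds thioredoxin and promotes the removal of glucose transporters from the cell surface, had a value of 0.057 with EPO and -0.50 without EPO. The difference of 0.56 (1.47-fold) lay at percentile 80.9 of all genes and 57.4 of machinery genes. The TXNIP promoter printed above holds GTAAACA, and the IRS2 window held none of the motifs. Any part of the motif in these differences was not tested.

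**Figure D2:**
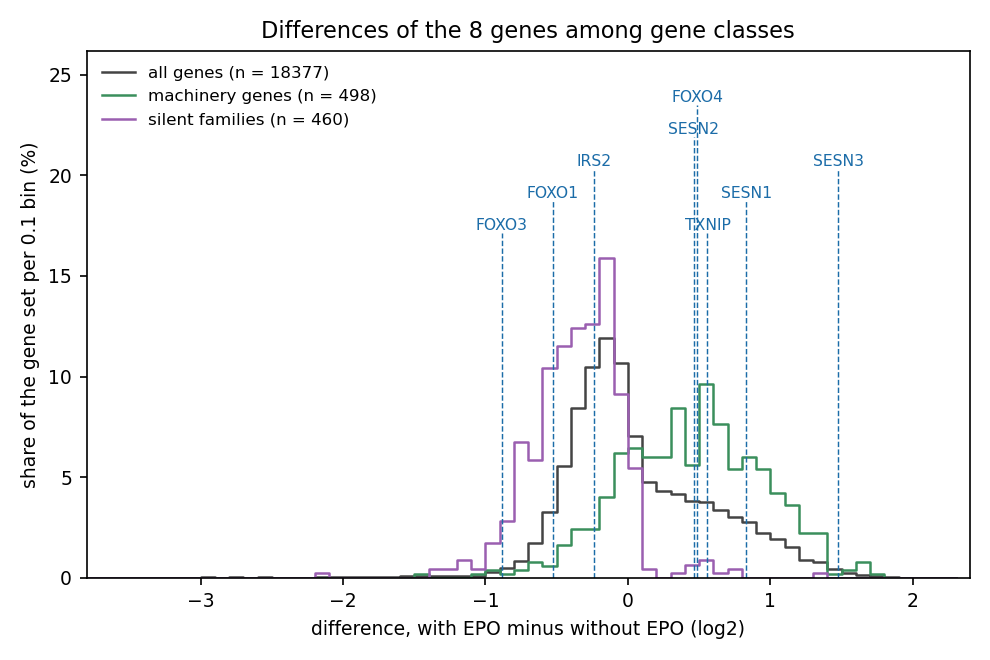
Share of genes in each 0.1-wide bin of the difference with EPO minus without EPO (log2), for all 18377 genes, 498 machinery genes and 460 genes of silent families, with dashed lines at the 8 genes. FOXO4, SESN2 and TXNIP fall in the middle of the machinery genes, while SESN3 at 1.48 lies in their upper tail and FOXO3 at -0.89 in the lower tail of all genes.

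In order of difference the genes ran SESN3, SESN1, TXNIP, FOXO4, SESN2, IRS2, FOXO1 and FOXO3. With 1 array a group the spread of each difference is unknown. Neighbours in this order were set beside the gap between probes of a gene on these same arrays. That gap holds no variation between cultures or arrays, so it cannot stand in for the spread. The largest steps were 0.70 between SESN2 and IRS2 and 0.65 between SESN3 and SESN1, and 83.8% and 82.6% of the 685 genes with several probes had a smaller gap than these. The steps of 0.071 from TXNIP to FOXO4 and 0.025 from FOXO4 to SESN2 were smaller than the median probe gap of 0.18. Without replicates, no part of the order is settled, the largest steps included.

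How the arrays were scaled to each other changed the direction of some genes. With the machinery median subtracted, SESN3 stood at 1.004, just past 2-fold, FOXO3 at -1.36 and FOXO1 at -1.0008, while SESN2 turned to -0.011. In that setting 1 of the 8 genes was higher and 2 were lower, beside 0.691% and 6.44% of all genes. With the median of the silent families subtracted, SESN3 stood at 1.80 and SESN1 at 1.15, both past 2-fold, FOXO3 at -0.56, and IRS2 turned to 0.084. There 2 of the 8 were higher and 0 lower, beside 15.0% and 0.571% of all genes. SESN3 was past 2-fold in all 4 scalings, and the differences of FOXO1 and FOXO3, each on the probe of its own, were below 0 in all 4. With the median of all genes subtracted, 1 of the 8 was higher and 0 were lower, beside 7.17% and 0.849% of all genes. At a 1.5-fold threshold, 2 of the 8 (SESN3 and SESN1) were higher and 1 (FOXO3) was lower, beside 18.1% and 4.65% of all genes, and at 3-fold 0 were higher and 0 lower, beside 0.365% and 0.370%.

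**Figure D3:**
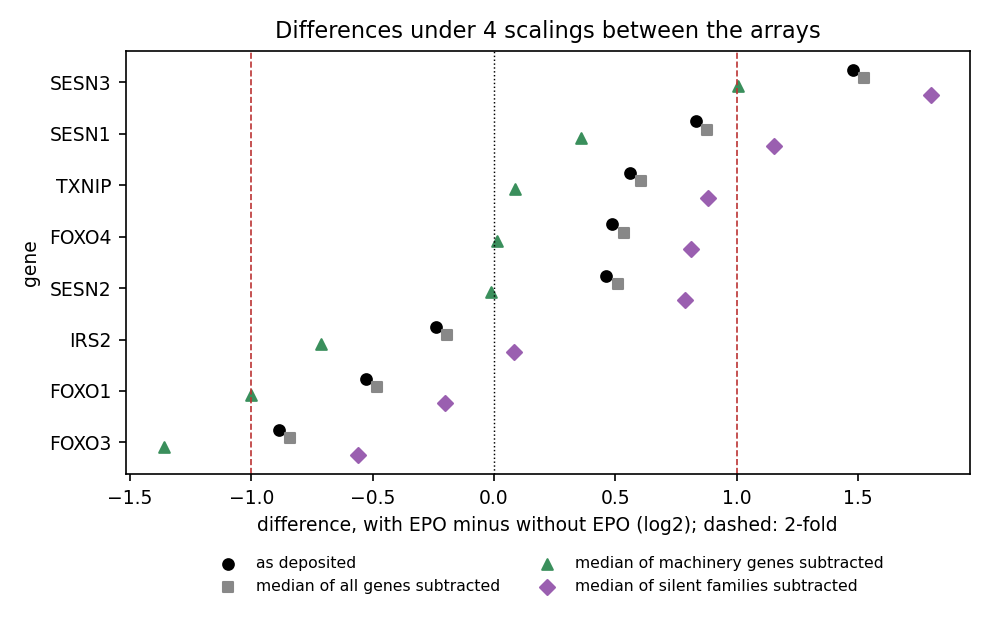
Difference with EPO minus without EPO (log2) of each gene as deposited and with the median of all genes, of machinery genes or of silent families subtracted, with dashed lines at 2-fold. SESN2 and IRS2 cross 0 between scalings, and SESN3 stays at or beyond 1.004.

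The genes around the 8 were followed in 5 lists. Upstream of FOXO, the insulin receptor, IRS, PI3-kinase and AKT list had 18 of 23 genes with a probe of their own. None passed 2-fold in either direction (0 higher and 0 lower, beside 6.19% and 0.898% of all genes). The median difference was 0.27 and 14 of the 18 (77.8%) were above 0, against a median of -0.047 and 45.4% above 0 over all genes. The machinery genes had a median of 0.47, which is above that of this list. IGF1R, the receptor for insulin-like growth factor, stood at 0.11 with EPO and -0.81 without EPO, a difference of 0.92. The PI3-kinase regulatory subunits PIK3R3 and PIK3R1 had differences of 0.88 and 0.85. The 5 PI3-kinase subunits measured lay between 0.13 and 0.88. AKT1, the kinase that phosphorylates FOXO proteins, had a difference of 0.54, and EPOR, the EPO receptor, 0.31. SGK1, a kinase related to AKT that also phosphorylates FOXO3, stood at -0.17 with EPO and 0.67 without EPO, a difference of -0.84, the lowest of the list.

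Proteins that bind or modify FOXO factors were mostly above 0. Of 21 genes, 2 passed 2-fold upward with EPO (9.52%) and 0 downward, beside 6.19% and 0.898% of all genes and 13.9% of machinery genes upward. The median was 0.64, beside 0.47 for the machinery genes. Of the list 90.5% were above 0, beside 45.4% of all genes, and most machinery genes were above 0 too. YWHAH, a 14-3-3 protein, had values of 0.080 with EPO and -1.05 without EPO, a difference of 1.13. USP7, a deubiquitinase that acts on FOXO4, had a difference of 1.11, and SKP2, the ubiquitin ligase subunit that targets FOXO1, 0.97. The 6 YWHA genes of the 14-3-3 family lay between 0.54 and 1.13, with a median of 0.68, which is above the machinery median of 0.47. The remaining 14-3-3 gene, SFN, typical of epithelia, stood at -0.57. XPO1, the exporter that carries FOXO proteins out of the nucleus, stood at 0.70.

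Other known FOXO targets did not share a direction. Of 30 genes, 0 passed 2-fold upward and 0 downward, beside 6.19% and 0.898% of all genes. The median was 0.079, below the machinery median of 0.47, and 17 (56.7%) were above 0, beside 45.4% of all genes. Among the 8 targets in antioxidant defence and mitophagy the median was 0.51, near the machinery median of 0.47. PRDX3, a mitochondrial peroxiredoxin, had the highest difference of the list at 0.99. The autophagy gene GABARAPL1 stood at 0.76, PINK1 at 0.69 and CAT (catalase) at 0.64. ATG14 stood at 0.38, MAP1LC3B at 0.086 and BNIP3 at 0.073, and SOD2, the mitochondrial superoxide dismutase, at -0.57. Among cell cycle targets CDKN1B, which encodes the inhibitor p27, stood at 0.82 and CDKN1A, which encodes p21, at -0.68. In the group that acts on cell death, BCL2L11 (BIM) stood at 0.22, TNFSF10 (TRAIL) at 0.44, BBC3 (PUMA) at -0.27 and FASLG at -0.65. IGFBP1, a target known from liver, had the lowest difference of the list, with values of -0.25 with EPO and 0.62 without EPO, a difference of -0.87. The 7 targets known mainly from liver and muscle had a median of -0.28, near the -0.32 of the silent families. Outside these groups CITED2 stood at -0.69, KLF2 at -0.60, S1PR1 at -0.015 and ERBB3 at 0.19.

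The sestrin partners split within each complex. Of 34 measured genes of the GATOR complexes, Rag GTPases, Ragulator, mTORC1 and AMPK, 4 passed 2-fold upward with EPO (11.8%) and 0 downward, beside 6.19% and 0.898% of all genes and 13.9% of machinery genes upward. The median was 0.13, below the machinery median of 0.47, and 21 (61.8%) were above 0, beside 45.4% of all genes. In GATOR2, the complex that sestrins bind, SEH1L stood at 1.30 and MIOS at 1.18, while WDR24 and WDR59 stood at -0.048 and -0.10. SEH1L is also a nucleoporin, and SEC13 (0.61) also a coat protein of secretory vesicles. RRAGC, a Rag GTPase, had values of 0.27 with EPO and -1.06 without EPO, a difference of 1.33, against 0.025 for its partner RRAGA. LAMTOR3, a Ragulator subunit, had a difference of 1.34, against -0.23 for LAMTOR2. MTOR itself stood at 0.14, RPTOR at -0.040 and the stress-induced mTORC1 inhibitor DDIT4 at 0.057. Of the 7 AMPK subunits 5 were above 0, led by PRKAG1 at 0.91 and PRKAA1 at 0.88.

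Genes around TXNIP passed 2-fold about as often as all genes did. Of 17 measured genes of the thioredoxin system, the alpha-arrestin family and the MondoA factors, 1 passed 2-fold upward with EPO (5.88%) and 0 downward, beside 6.19% and 0.898% of all genes. The median was 0.45, just below the machinery median of 0.47, and 15 (88.2%) were above 0, beside 45.4% of all genes. The gene past 2-fold was PRDX1, a cytosolic peroxiredoxin, with values of 0.15 with EPO and -0.88 without EPO, a difference of 1.03. MLX, the dimer partner of MondoA, stood at 0.82, MondoA itself (MLXIP) at 0.54 and the related MLXIPL at -0.48. ARRDC4, the alpha-arrestin known to be controlled by MondoA together with TXNIP, stood at 0.74, and ARRDC3 at 0.68. SLC2A1, the glucose transporter that TXNIP acts on, stood at 0.80, and thioredoxin (TXN) at 0.41.

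**Figure D4:**
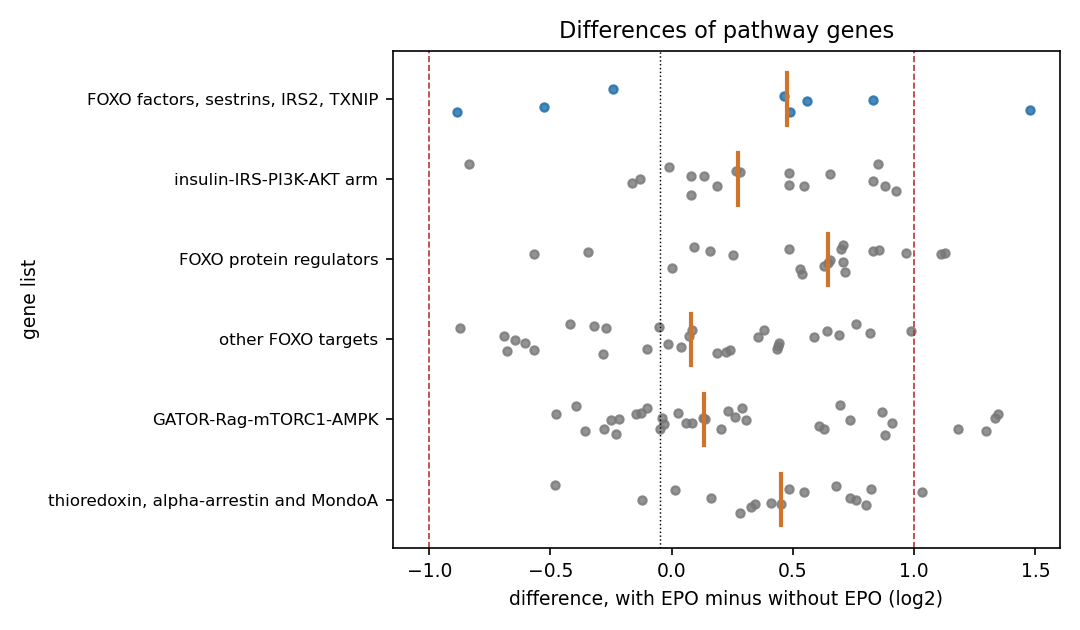
Difference with EPO minus without EPO (log2) of each measured gene, for the 8 genes (blue, top row) and 5 lists of pathway genes (grey), with an orange bar at each median, dashed lines at 2-fold and a dotted line at the median of all genes (-0.047). Points are spread vertically for legibility. The median is highest for FOXO protein regulators (0.64) and lowest for other FOXO targets (0.079).

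Marker genes also differed between the arrays. Of the K562-type erythroid markers, 8 of 13 had a probe of their own. Their values lay between -0.070 and 0.18 with EPO and between -0.95 and -0.021 without EPO. The difference was positive in 7 of the 8, beside 45.4% of all genes. Its median was 0.25, below the machinery median of 0.47. The globin genes HBE1 and HBZ stood at 0.11 and -0.040. TFRC, the transferrin receptor, stood at 1.02, past 2-fold, and the erythroid transcription factors TAL1 and NFE2 at 0.81 and 0.37. Of the lymphoid and epithelial markers, 9 of 10 had a probe. Their values lay between -0.16 and 0.084 with EPO and between -1.17 and 0.50 without EPO. The median difference was -0.23, beside -0.32 for the silent families. Of the 9, 8 had a negative difference, as did 10032 of all 18377 genes. The exception was EPCAM, an epithelial adhesion protein, with a difference of 1.25, past 2-fold and the largest of that list, while the T cell genes CD3D and CD2 stood at -0.67 and -0.45. The part of these shifts in the differences of the 8 genes was not tested.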

How the data were processed

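The authors deposited log2 expression values of 28869 probes for 2 samples, 1 Affymetrix Gene 1.0 ST array each, labelled as sense-strand cDNA per the labels' protocols. For background correction, normalization, baseline, software and log base, the deposited table and labels used here give no statement. Probes with 1 platform gene symbol (19310) were named through a RefSeq gene table by Entrez ID (19279 matched) and averaged per gene. The value reported is the log2 value with EPO minus that without EPO, with no test. Percentiles count the share of genes with a lower value, ties as equal parts. Machinery genes and silent families were chosen by symbol pattern. The genes named are the 8 members, in each list the 3 genes with the largest differences and any past 2-fold, and ATF4, NFE2L2, EPOR and AKT1. A further regulator in that rule is not analysed here. Other genes, and families inside lists, were chosen after their values were seen. The members and lists were chosen with earlier results of these data known. No gene was named for a pattern like a member's, since 2 arrays give 1 difference per gene. Alternatives were other scalings, fold thresholds and probe rules. The averaging and the call were tested on simulated data. Python 3.11.15 was used with pandas 2.3.3, NumPy 2.4.6 and, for figures, matplotlib 3.10.9.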

Additional observations from a re-analysis of the deposited data

How the results depend on the processing

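With 1 array per group no replicate could be left out. No paired analysis was possible because each group has 1 sample. Each of the 8 genes has 1 probe, so the probe rules changed none of their values. The median difference of the 8 genes was 0.48 as deposited, 0.0019 with the machinery median subtracted and 0.80 with the silent median subtracted. SESN2 turned to -0.011 with the machinery median subtracted and IRS2 to 0.084 with the silent median subtracted. Of the 8 genes, 2 were higher at 1.5-fold (beside 18.1% of all genes) or with the silent median subtracted (15.0%), and 0 at 3-fold (0.365%). As for lower genes, 2 passed with the machinery median subtracted (beside 6.44% of all genes) and 1 at 1.5-fold (4.65%). With the machinery median subtracted, no list had a higher gene (0 each), beside only 0.691% of all genes. In that setting 1 gene of the insulin to AKT list, 1 FOXO regulator and 6 other FOXO targets were lower, beside 6.44% of all genes. With the silent median subtracted the higher genes were 4 in the insulin to AKT list, 9 FOXO regulators, 4 other targets, 9 in the GATOR to AMPK list and 6 in the thioredoxin list, beside 15.0% of all genes. At 1.5-fold they were 5, 12, 6, 11 and 6 in the same order, with 1 lower in the first list and 5 lower other targets, beside 18.1% higher and 4.65% lower of all genes, and at 3-fold 0 in each, beside 0.365% higher. With the median of all genes subtracted, the higher genes were 0, 3, 1, 4 and 1 in the same order, beside 7.17% of all genes. The cause was not tested. Averaging in the probe shared with FOXO3B, an alternative chosen after seeing the data, gave -0.11 for FOXO3.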
